A study of Mus musculus with 15 samples.

Results

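The genes described here encode the enzymes of oxidative phosphorylation, the process by which mitochondria make ATP. They were chosen by symbol: every gene measured by a probe set with 1 symbol that begins with Nduf, Sdh, Uqcr, Cox4 to Cox8 or Atp5, taking the brightest probe set where a gene had several. This gave 93 of the 19938 genes measured. By their known roles 73 of them are subunits of an enzyme complex (34 of complex I, 4 of complex II, 8 of complex III, 10 of complex IV and 17 of complex V), 11 are assembly factors (7 Ndufaf and 4 Sdhaf genes), 8 are alternative isoforms of subunits, and Cox7a2l helps join complexes to each other.

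The samples were right hippocampi of male C57BL/6 mouse pups taken on postnatal day 9, with birth as day 1, and all groups share this strain, sex, age and tissue. There were 15 arrays in 5 groups of 3: pups with no treatment (CC), pups under mild stress that received saline vehicle (MSS) or the opioid morphine (MSM), and pups under severe stress that received saline vehicle (SSS) or morphine (SSM). Pups were treated between postnatal days 5 and 9, in litters of at most 7. The sources used here give neither the kind of stress nor the morphine dose nor each pup's litter. CC differs from every other group in stress and in receiving saline or morphine together. With litters unknown, p-values measure only the spread between these arrays. RNA was read on Affymetrix Mouse Gene 1.0 ST arrays, and the values are log2 intensities made with RMA, a method that corrects, normalizes and summarises probe signals. All levels below are log2 values from which the median of all 19938 genes on the same array was subtracted, so that a level of 3 lies 3 log2 units above that array's median gene. Array medians before this step lay between 6.22 and 6.39. Differences between groups come from limma, a linear model with a spread estimate shared over genes. They are given with their standard error (SE) and, where a p is adjusted, by the Benjamini-Hochberg method over all 19938 genes, with a threshold of 0.05.

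Complex I (NADH dehydrogenase) and complex II (succinate dehydrogenase) pass electrons from NADH and succinate to ubiquinone, complex III passes them to cytochrome c and complex IV to oxygen. Complexes I, III and IV pump protons across the inner mitochondrial membrane, and complex V (ATP synthase) lets them flow back to make ATP. Neurons depend on this supply for ion pumping and synaptic transmission, and respiratory capacity of rodent brain grows during the first postnatal weeks. Nearly all subunits are encoded in the nucleus and a small group in mitochondrial DNA, and the nuclear genes are known targets of the factors NRF1, GABPA (an ETS factor) and YY1.

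Promoter windows of RefSeq, assembly GRCm38.p6, from 250 bases before to 50 bases after the annotated start of a gene, were matched by symbol for 77 of the 93 members. A motif was counted on either strand, and a base may serve more than 1 motif. The NRF1 motif lay in the window of 20 of the 77 members (26.0%), compared with 7.17% of 17492 protein-coding genes, and its 10 letters stand in capitals in the windows of Ndufa6 and Ndufs6. The ETS motif CCGGAAG lay in 21 (27.3%, compared with 12.9%), and the YY1 motif AAGATGGC in 10 (13.0%, compared with 3.57%), all 10 of them subunits. The Sp1 motif GGGCGG, which is common to many promoters, lay in 48.1% of members and 49.2% of protein-coding genes. Of the 10 YY1 matches, 7 belonged to complex I and 3 to complex V. The windows of 4 genes whose values are given below show these motifs in place. They are written 5' to 3' on the strand of the gene, with each match to one of the 4 motifs, or to its reverse complement, in capitals.
Ndufa6, 1 NRF1 and 1 Sp1 match, chr15:82354242-82354541 (minus strand): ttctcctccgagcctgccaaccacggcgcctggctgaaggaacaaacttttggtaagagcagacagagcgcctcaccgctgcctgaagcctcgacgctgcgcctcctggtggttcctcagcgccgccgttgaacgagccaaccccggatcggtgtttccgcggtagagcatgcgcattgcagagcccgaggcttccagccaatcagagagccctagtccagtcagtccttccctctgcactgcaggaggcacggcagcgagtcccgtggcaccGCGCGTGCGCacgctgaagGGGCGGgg
Ndufs6, 1 NRF1 and 1 YY1 match, chr13:73328433-73328732 (minus strand): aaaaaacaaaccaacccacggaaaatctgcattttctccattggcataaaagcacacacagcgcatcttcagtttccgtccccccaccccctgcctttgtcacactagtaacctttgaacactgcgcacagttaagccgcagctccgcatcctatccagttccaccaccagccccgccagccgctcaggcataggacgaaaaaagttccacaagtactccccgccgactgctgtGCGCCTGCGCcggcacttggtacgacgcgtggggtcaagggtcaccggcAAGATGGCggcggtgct
Ndufb8, 1 YY1 and 1 Sp1 match, chr19:44555393-44555692 (minus strand): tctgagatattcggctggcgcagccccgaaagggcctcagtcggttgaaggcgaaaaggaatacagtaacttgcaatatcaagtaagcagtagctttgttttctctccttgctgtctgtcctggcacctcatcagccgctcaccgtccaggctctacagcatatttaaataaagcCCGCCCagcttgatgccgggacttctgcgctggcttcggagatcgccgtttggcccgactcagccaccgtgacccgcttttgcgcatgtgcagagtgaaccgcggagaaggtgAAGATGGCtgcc
Atp5md, 1 ETS and 1 Sp1 match, chr19:47090598-47090897 (minus strand): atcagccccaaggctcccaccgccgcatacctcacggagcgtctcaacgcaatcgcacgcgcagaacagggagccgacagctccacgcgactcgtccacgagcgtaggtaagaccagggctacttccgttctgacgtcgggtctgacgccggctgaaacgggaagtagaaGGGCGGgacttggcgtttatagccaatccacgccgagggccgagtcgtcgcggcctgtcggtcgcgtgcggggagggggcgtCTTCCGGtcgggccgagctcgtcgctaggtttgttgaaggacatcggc
In Ndufs6 the NRF1 match lies just before the annotated start of the gene and the YY1 match just after it. In Atp5md the ETS match is on the opposite strand and reads CTTCCGG. A match describes these letters only, and binding was not measured.

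The members were bright on the arrays. Of the 73 subunits 67 were among the 4985 brightest of all genes, from 0.12 (Ndufa7) to 5.82 (Atp5b, the catalytic beta subunit of ATP synthase) above the array median. All 8 alternative isoforms lay below the array median, from -2.16 (Cox7b2) to -0.30 (Cox6a2). Cox4i2, Cox6a2, Cox6b2, Cox7a1, Cox7b2, Cox8b and Cox8c can replace the common forms of complex IV subunits, in tissues such as lung, muscle or testis. Ndufa4l2 is a relative of Ndufa4 known from low oxygen. Whether any of them is absent from brain cells was not tested. The 7 complex I assembly factors, which build the enzyme but do not stay in it, lay between -1.04 (Ndufaf6) and 2.11 (Ndufaf7). Different probe sets differ in how brightly they report, so these levels are not compared between genes.

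The tissue label was checked against markers of hippocampal neurons. Slc17a7, the vesicular glutamate transporter of pyramidal neurons, lay between 3.96 and 5.16 above the array median, and Prox1, a transcription factor of dentate granule cells, between 1.54 and 2.88. SSM replicate 1 stood apart with a median of 2.64 over 13 striatum markers, compared with -0.36 to 1.55 on the other arrays. The 1.55 was read on a CC array, while MSS, MSM and SSS arrays read at most 0.58. MSM replicate 3 stood apart with a median of 2.18 over 13 thalamus markers (0.48 to 0.95 on the others) and the lowest median over 12 glutamatergic neuron markers, 1.84. Ttr, a gene of the choroid plexus, ranged from 2.65 to 6.99 and was low on MSS replicates 1 and 2 and SSS replicate 2. Subunit medians of the comparisons that use SSM replicate 1 or MSM replicate 3 are therefore given with and without both. The CC array that read 1.55 over the striatum markers was kept in these. The sample titles also carry an SS number of unstated meaning. All CC arrays share one such number and all MSS and MSM arrays another, and SSS and SSM arrays carry further ones. The SS number therefore cannot be told apart from the group in the comparisons with CC or from stress severity. Within severe stress, SSM replicate 1 and SSS replicate 3 share a number. The other SSM arrays carry a number found in no other group, and so do the other SSS arrays. There the SS number is partly tied to morphine. In bulk tissue a smaller share of one cell type and less RNA per cell cannot be told apart.

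No member passed the threshold in any comparison. Across the 11 contrasts between groups and an F-test over all 5 groups, limma called 0 of the 93 members after adjustment, and this count was 0 under every alternative scaling and array choice tried. Over all genes 0% were called in 10 of the contrasts and in the F-test, and 0.0853% (17 genes) in the contrast of severe with mild stress. At an unadjusted p under 0.05 the F-test took 10 of the 93 members, and 6.43% of all genes. The smallest F-test p belonged to Ndufb5, a subunit in the membrane arm of complex I (adjusted p = 0.536, limma).

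The subunit genes showed a small upward displacement that was largest in the pups that had both severe stress and morphine. Under mild stress 56 of the 73 subunits also lay higher with morphine than with saline, as given below. Taken as the median over the 73 subunits, SSM arrays read 3.41, 3.48 and 3.43. CC arrays read 3.32, 3.37 and 3.32, MSS arrays 3.27, 3.26 and 3.31, MSM arrays 3.38, 3.32 and 3.34, and SSS arrays 3.36, 3.33 and 3.33. All 3 SSM arrays lay above the other 12, and all 3 MSS arrays lay below every other array. The group means were 3.44 ± 0.038 for SSM, 3.35 ± 0.028 for MSM, 3.34 ± 0.017 for SSS, 3.34 ± 0.029 for CC and 3.28 ± 0.025 for MSS (SD, n = 3). MSM, SSS and CC, the middle of this order, overlapped each other. After quantile normalization the SSM arrays still lay above the other 12 (9.65 to 9.71 compared with 9.49 to 9.62), while MSS replicate 3, at 9.60, no longer lay below the other groups. Of the 73 subunits, 55 (75.3%) had their highest group mean in SSM, compared with 26.7% of all genes, and 0 had their lowest there. MSS held the lowest group mean of 35 subunits (47.9%), compared with 16.2% of all genes.

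**Figure D1:**
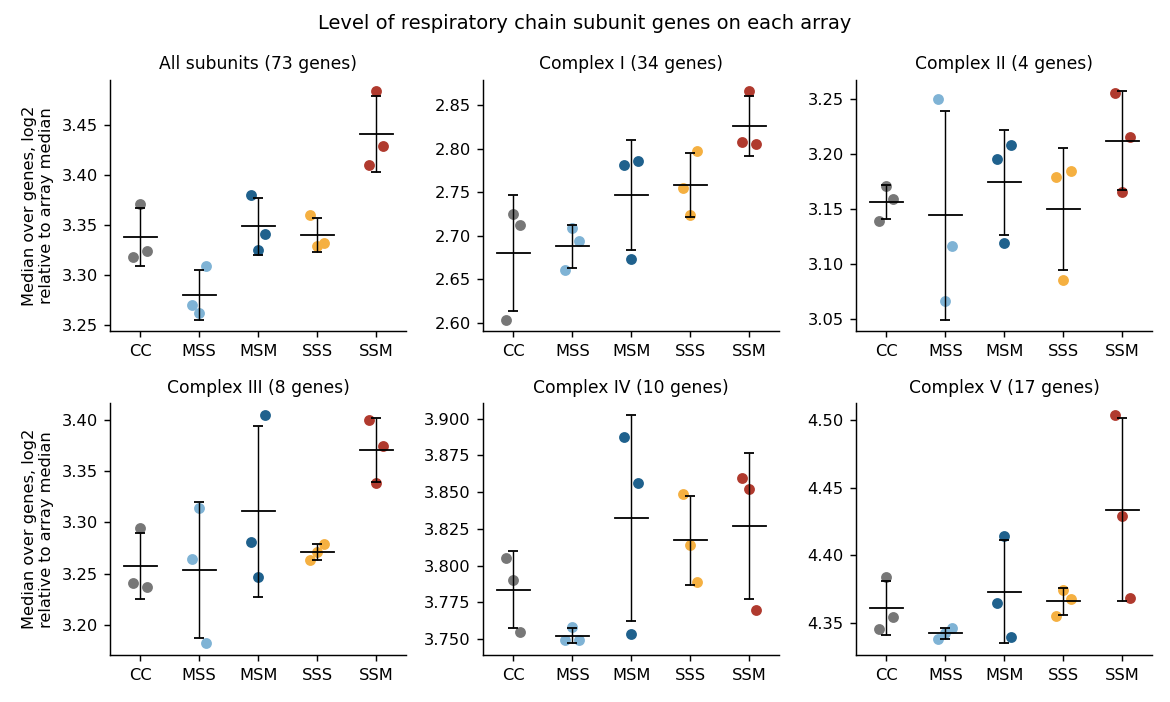
Median level (log2, relative to the array median) over all 73 subunit genes and over the subunits of each complex, with 1 point per array, the group mean as a line and ± 1 SD as bars. Vertical axes differ between panels and do not start at 0. The 3 SSM arrays sit above the other 12 for all subunits and for complex I, while in complexes II to V the SSM arrays overlap other groups.

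Compared with untreated pups, 70 of the 73 subunits lay higher in SSM, with a median difference of 0.070, a level 4.99% higher. The median of all genes in the same comparison was 0.0056, with 52.7% above 0, and that of the 4985 brightest genes 0.0069. The typical SE of a single subunit's difference was 0.060 (median over the subunits), nearly as large as the median difference itself. At an unadjusted p under 0.05, 11 subunits were higher and 0 lower, where 2.67% of all genes were higher and 3.36% lower. For 22 subunits all 3 SSM arrays lay above all 3 CC arrays, and for 0 below, where 5.04% of all genes lay wholly above and 5.68% wholly below. Because all subunits come from the same arrays, these counts describe the 6 arrays and are not independent tests. Without SSM replicate 1 and MSM replicate 3 the median was 0.063, with 61 of 73 subunits above 0.

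The median difference was above 0 in each complex. In complexes I, III and V the accessory or membrane subunits had larger medians than the core subunits or those of the F1 part. That order also held in MSM, SSS and MSS against the same CC arrays, so it was not particular to SSM. In complex I 33 of 34 subunits lay higher in SSM than in CC (median 0.086), with all 28 accessory subunits above 0 (median 0.093) and 5 of the 6 core subunits (median 0.021). In complex V 16 of 17 lay higher (median 0.084). These were all 9 of the peripheral stalk and membrane part (0.096) and all 3 genes of the c ring (0.065). The others were 4 of the 5 of the F1 part, its catalytic head and central stalk (0.018). In complex III it was 8 of 8 (0.098), with a median of 0.026 for the 3 core and 0.098 for the 5 accessory subunits, in complex II 4 of 4 (0.052) and in complex IV 9 of 10 (0.050). Complexes II and IV had 0 subunits with an unadjusted p under 0.05. Over all 19938 genes 533 were higher and 670 lower at that p, a share at which 0 in sets this small is not unusual. Without both arrays that stood apart the medians were 0.081 in complex I (30 of 34 above 0), 0.034 in complex II (3 of 4), 0.11 in complex III (7 of 8), 0.030 in complex IV (9 of 10) and 0.083 in complex V (12 of 17). Within complex V the 9 peripheral stalk and membrane genes then all lay higher (0.11), but only 1 of the 5 genes of the F1 part did, with a median of -0.0068. In complex I the core and accessory medians against CC were -0.044 and 0.031 in MSM, and -0.032 and 0.021 in SSS. In MSS they were -0.061 and -0.019. For SSM minus SSS they were 0.073 and 0.079. For SSM minus MSM they were 0.081 and 0.061, and there the core or F1 median was also the larger in complexes III and V. Whether accessory and core subunits, or the complexes, differ from each other was not tested.

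Among the accessory subunits of complex I, Ndufa6, a small protein of the matrix arm, read 2.31, 2.32 and 2.43 in SSM and 2.31, 2.32 and 2.33 in SSS. It read 2.13, 2.12 and 2.20 in CC, 2.20, 2.28 and 2.21 in MSS, and 2.09, 2.22 and 2.27 in MSM. All 6 arrays of severely stressed pups lay above all 6 of mildly stressed pups and above CC. Its SSM minus CC difference was 0.20 (SE 0.056), with an adjusted p of 0.544 (limma). Ndufa1, a short membrane subunit needed for complex I assembly, read 3.05, 3.02 and 3.10 in SSM and between 2.78 and 2.95 on the other 12 arrays. SSM lay above every other array for this gene, by 0.16 (SE 0.050) against CC (adjusted p = 0.621) and by 0.21 (SE 0.050) against MSM (adjusted p = 0.176), both from limma. Ndufb9 was the only other member with all SSM arrays (2.89, 2.93 and 2.89) above the other 12, the nearest being 2.88 in MSM. Over all genes 0.838% had this pattern. Ndufs6, a zinc-binding subunit, read 2.23, 2.21 and 2.00 in SSM and 1.99, 1.95 and 1.79 in CC, groups that lay next to each other without overlapping. Ndufb8, in the membrane arm, read 2.51, 2.34 and 2.44 in SSM and 2.29, 2.26 and 2.19 in CC, also without overlap.

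In complex V the members with the smallest p were both small proteins of the membrane part, where ATP synthase forms dimers. Atp5md read 4.82, 4.70 and 4.82 in SSM and 4.52, 4.62 and 4.35 in CC, with 4.53, 4.62 and 4.46 in SSS. SSM lay above CC and SSS without overlap, by 0.28 (SE 0.079), or 21.2%, against CC (adjusted p = 0.544, limma). MSM replicate 3, at 4.74, lay within the SSM range. Atp5l, the g subunit, read 2.81, 2.80 and 2.84 in SSM, 2.82, 2.74 and 2.90 in MSM, and 2.80, 2.72 and 2.83 in MSS, but 2.50, 2.68 and 2.53 in CC and 2.69, 2.70 and 2.43 in SSS. For Atp5l it was therefore CC and SSS that were low, and SSM overlapped both mild-stress groups. Both genes had several probe sets, which may read related copies of the gene. All 6 probe sets of Atp5l lay higher in SSM than in CC, by 0.20 to 0.29, and the 3 of Atp5md by 0.24 to 0.28. Over the 18 members with several probe sets, 17 had the same sign in every one.

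In complex III, Uqcrfs1, the Rieske iron-sulfur protein that takes electrons from ubiquinol, read 1.82, 2.04 and 1.99 in SSM and 1.68, 1.84 and 1.60 in CC. The groups overlapped, and the difference was 0.24 (SE 0.091, adjusted p = 0.725, limma). In complex II, Sdhb, the iron-sulfur subunit, read 3.00, 2.99 and 3.00 in SSM and 2.92, 2.96 and 2.92 in CC, a difference of 0.064 with no overlap. Sdhb, Ndufb9, Ndufs6 and Ndufb8 were chosen for this comparison after their values were seen. It was 1 of 4 genes of the complex and the only one whose groups stood apart.

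The members that are not subunits did not share the displacement as a group. Of the 7 complex I assembly factors 2 lay higher in SSM than in CC (median -0.0093), while all 4 complex II assembly factors did (0.075). The alternative isoforms split 5 to 3 (median 0.015). Cox4i2, an alternative isoform of Cox4i1, read -0.73, -0.69 and -0.53 in SSM and -0.37, -0.48 and -0.30 in CC. It was the only member lower in SSM without overlap, by -0.27 (SE 0.078, adjusted p = 0.552, limma), at a level below the array median in every sample.

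**Figure D2:**
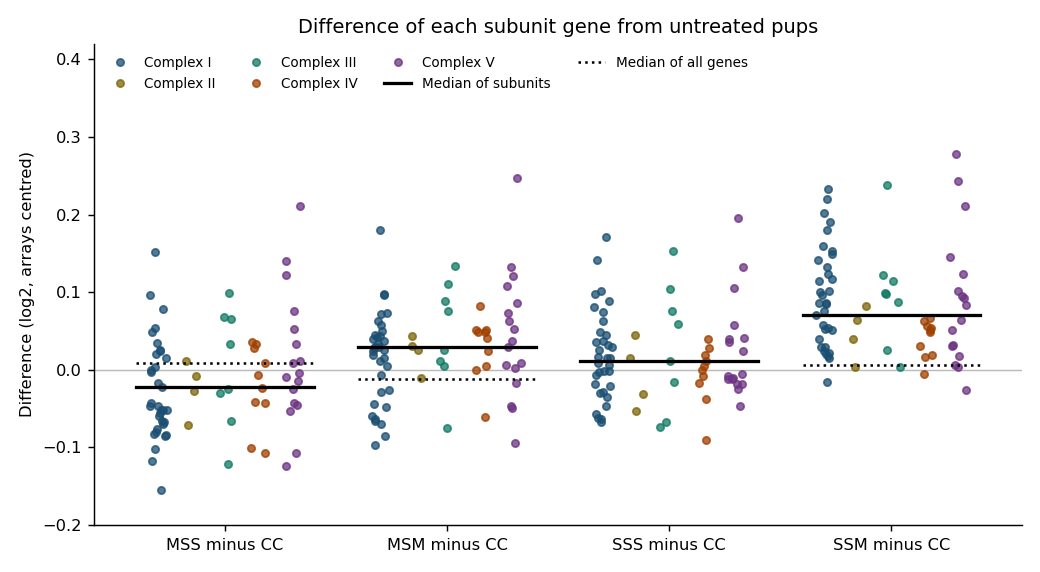
Difference of each of the 73 subunit genes from untreated pups (log2, arrays centred on their median) in the 4 treated groups, with points coloured by complex, the subunit median as a solid line and the median of all 19938 genes as a dotted line. All 4 comparisons share the 3 CC arrays. The subunit median lies at 0.070 for SSM, 0.029 for MSM, 0.011 for SSS and -0.022 for MSS.

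In their subunit medians the other treated groups lay closer to CC. All 4 comparisons with CC share the CC arrays. In MSM 54 of 73 subunits lay higher than in CC (median 0.029), where the median of all genes was -0.011 with 43.8% above 0. In SSS 40 subunits did (median 0.011), where the median of all genes was 0.011 with 56.7% above 0. In MSS 28 did (median -0.022), where the median of all genes was 0.0087 with 55.1% above 0. The medians of the 4985 brightest genes were -0.027 in MSM, 0.015 in SSS and -0.011 in MSS. At an unadjusted p under 0.05, MSM had 3 subunits higher and 0 lower (1.53% and 2.26% of all genes), SSS 2 and 0 (1.61% and 1.25%), and MSS 2 and 3 (2.09% and 1.24%). All 3 arrays lay above CC for 1 subunit in MSM and below for 1 (3.03% and 5.64% of all genes), for 6 and 2 in SSS (6.49% and 3.75%), and for 3 and 12 in MSS (6.08% and 3.68%). Without MSM replicate 3 the MSM median was 0.011, with 42 of 73 subunits above 0. After quantile normalization MSM had a median of 0.050 with 58 above 0, SSS -0.0053 with 32 and MSS -0.0053 with 35. Without MSS replicate 3 the MSS median was -0.0091, with 34 above 0, and without MSM replicate 2 the MSM median was 0.047, with 56 above 0. In MSS all 6 core subunits of complex I lay below CC (median -0.061), and 17 of the 28 accessory ones. Of the core subunits 5 also lay below CC in SSS (-0.032) and 4 in MSM (-0.044).

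The effect of morphine was measured within each stress level and as the mean of both differences, and the severe-stress difference uses the same SSM arrays as the comparison with CC. In severely stressed pups 66 of 73 subunits lay higher with morphine than with saline (median 0.059), where the median of all genes was -0.0082 with 46.1% above 0. In mildly stressed pups 56 did (median 0.037), where the median of all genes was -0.021 with 38.9% above 0. In the mean of both differences it was 66 subunits, with a median of 0.053, while the median of all genes was -0.015 and 40% of all genes lay above 0. In that mean 9 subunits had an unadjusted p under 0.05 and lay higher and 0 lay lower, compared with 2.22% and 4.7% of all genes. In severely stressed pups the corresponding counts were 6 and 0 (2.61% and 3.88% of all genes), and in mildly stressed pups 6 and 0 (1.06% and 2.82%). Without SSM replicate 1 and MSM replicate 3 the median was 0.061 in severely stressed pups (59 of 73 above 0), 0.024 in mildly stressed pups (43 of 73) and 0.039 in the mean (60 of 73), in which 5 subunits had an unadjusted p under 0.05 in either direction. Without MSM replicate 2 the median in mildly stressed pups was 0.061 (63 of 73). The arrays of SSM lay wholly above those of SSS for 16 subunits and wholly below for 0 (5.32% and 5.65% of all genes), and those of MSM above MSS for 7 and below for 1 (2.17% and 7.35%). The interaction, which compares both morphine differences, had a median of 0.017 over the subunits, 48 of 73 of them above 0 (54.6% of all genes), and 0 members called, with every adjusted p at 0.996 or above (limma). At an unadjusted p under 0.05 the interaction took 2 subunits higher and 1 lower, where 2.18% and 1.32% of all genes were taken. Its median was 0.025 without both arrays (43 of 73 above 0) and -0.014 without MSM replicate 2 (31 of 73). The 3 arrays low in Ttr all belong to saline groups, and leaving them out keeps only replicate 3 of MSS. The mean morphine median was then 0.049 (66 of 73 above 0) and the interaction median -0.0036 (35 of 73).

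Ndufb5 had the smallest p of the members in the mean morphine difference. It read 3.27, 3.41 and 3.42 in MSS and 3.53, 3.46 and 3.62 in MSM, then 3.55, 3.52 and 3.54 in SSS and 3.77, 3.66 and 3.58 in SSM. Morphine arrays lay above the saline arrays of the same stress level without overlap, and MSS lay below all 12 other arrays, as 0.196% of all genes did. The mean difference was 0.15 (SE 0.044), or 11.1%, with an adjusted p of 0.702 (limma). Without SSM replicate 1 and MSM replicate 3 the mean difference was 0.11 (SE 0.043). CC, at 3.53, 3.55 and 3.49, lay among SSS and MSM. Ndufs5, an accessory subunit, read 2.95, 2.59 and 2.68 in MSM and 2.51, 2.54 and 2.48 in MSS. Under severe stress it read 2.76, 2.68 and 2.63 in SSM and 2.63, 2.59 and 2.51 in SSS. Its mean morphine difference of 0.17 (SE 0.058, adjusted p = 0.702, limma) included 1 MSM array well above the rest. Cox5a, a nuclear-encoded subunit of complex IV, read 3.23, 3.16 and 3.24 in MSM and 3.00, 3.13 and 3.13 in MSS. Under severe stress the groups overlapped, with 3.30, 3.29 and 3.17 in SSM and 3.20, 3.09 and 3.17 in SSS. The mean morphine difference of Cox5a was 0.11 (SE 0.039, adjusted p = 0.702, limma).

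The effect of stress severity was measured in the same way, on the same 12 arrays. With saline, 51 of 73 subunits lay higher in severe than in mild stress, as did 52.2% of all genes (median 0.035, all genes 0.0037, brightest genes 0.027). With morphine 60 did, and 56.8% of all genes (median 0.047, all genes 0.016, brightest genes 0.037). In the mean of both it was 60, with a median of 0.044, while 56.1% of all genes lay above 0. Here the 4985 brightest genes also lay higher, with a median of 0.033 and 68.2% of them above 0, and 67 of the subunits are among them. After quantile normalization, which gives every array the same distribution, the subunit median was 0.012 with 45 of 73 above 0, and that of the brightest genes 0.0065. With saline alone the subunit median under that scaling was 3.56e-06, with 37 of 73 above 0, and with morphine alone it was 0.021, with 48 above 0. Centring on the brightest genes gave medians of 0.024 for the mean (47 of 73 above 0), 0.016 with saline (42) and 0.026 with morphine (49). With arrays centred on their median, leaving out MSS replicate 3 gave 0.012 with saline (44 of 73 above 0), and leaving out MSM replicate 2 gave 0.023 with morphine (51) and 0.028 in the mean (55). At an unadjusted p under 0.05, 12 subunits lay higher in severe stress and 0 lower, where 5.73% of all genes were higher and 5.02% lower. With saline alone the counts were 5 and 1 (1.53% and 2.26%), and with morphine alone 11 and 0 (6.36% and 4.93%). Of these 11 subunits 10 belong to complex I. Counted in either direction, the 12 subunits of the mean became 5 after quantile normalization, 4 when centred on the brightest genes and 7 with the SS number as a random block. The 11 with morphine alone became 5, 4 and 6 in the same order, and 3 without MSM replicate 2. Without SSM replicate 1 and MSM replicate 3 the median was 0.056 with morphine (58 of 73 above 0) and 0.049 in the mean (58 of 73). The arrays of SSS lay wholly above those of MSS for 10 subunits and below for 4 (5.53% and 5.3% of all genes), and those of SSM above MSM for 8 and below for 0 (8.11% and 6.26%).

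Ndufb5 again had the smallest p of the members for severity, with a mean difference of 0.15 (SE 0.044, adjusted p = 0.183, limma). Ndufs7, a core iron-sulfur subunit next to the ubiquinone site of complex I, read 2.94, 2.84 and 2.96 in SSM and 2.74, 2.67 and 2.79 in MSM. With saline it read 2.88, 2.75 and 2.82 in SSS and 2.79, 2.72 and 2.75 in MSS. SSM and MSM did not overlap, SSS and MSS did, and the mean severity difference was 0.12 (SE 0.038, adjusted p = 0.224, limma). Ndufa6, described above, was the 1 member whose 6 severe-stress arrays all exceeded the 6 mild-stress arrays, where 0.547% of all genes did so (difference 0.13, SE 0.040, adjusted p = 0.237, limma).

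Sdhaf1, which guards the iron-sulfur clusters of Sdhb while complex II is built, followed another pattern. It read 1.35, 1.37 and 1.37 in MSS, and between 1.46 and 1.60 on the other 12 arrays. MSS alone was low and did not overlap any group. The differences were 0.20 (SE 0.046) for SSS minus MSS, 0.14 (SE 0.046) for MSM minus MSS and -0.14 (SE 0.046) for MSS minus CC, which all share the MSS arrays. The adjusted p-values were 0.712, 0.954 and 0.999 in that order (limma). Sdhaf1 was named in an earlier account of these arrays, so its choice is not independent of its values. Besides Sdhaf1 and Ndufb5, Cox8c had all MSS arrays beyond the 12 others, in that case higher, as 0.256% of all genes did (-1.83, -1.83 and -1.77). The gap was close to a tie, with -1.829 on MSS replicate 2 and -1.8302 on SSM replicate 3. These values lay far below the array median.

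**Figure D3:**
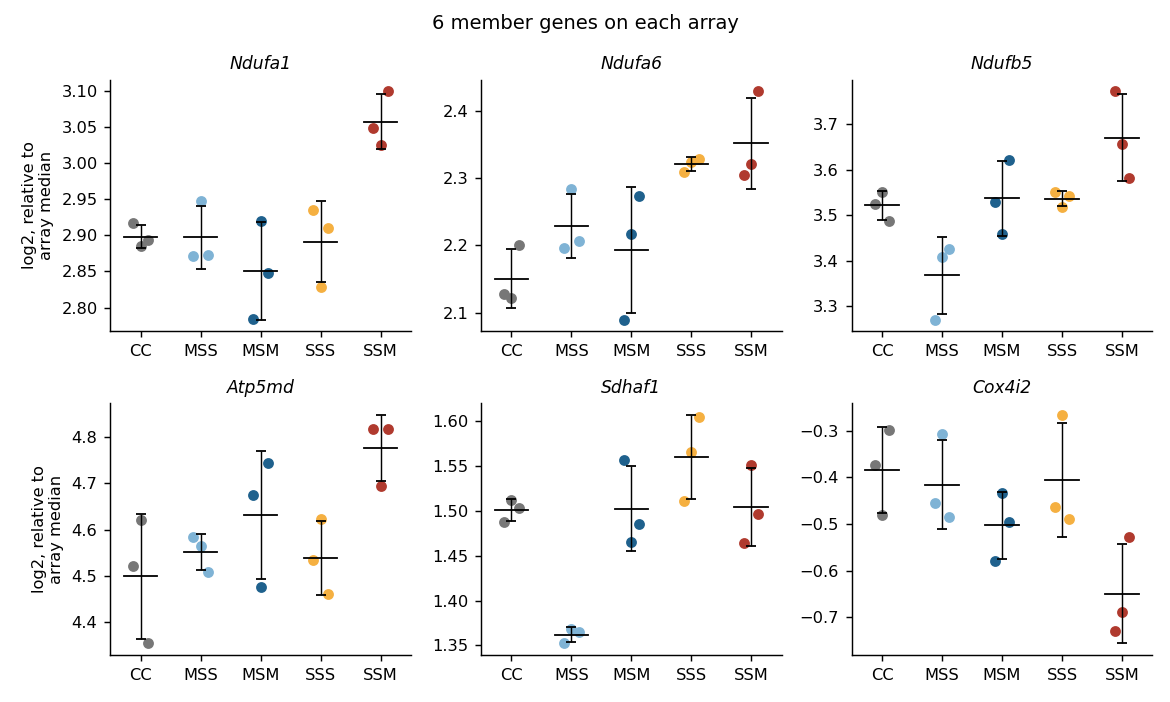
Level (log2, relative to the array median) of 6 member genes on each array, with 1 point per array, the group mean as a line and ± 1 SD as bars. Vertical axes differ between panels and do not start at 0. SSM arrays lie above all others for Ndufa1, both severe-stress groups lie above both mild-stress groups for Ndufa6, and MSS arrays lie below all others for Ndufb5 and Sdhaf1.

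Related genes of mitochondria were read from lists in the same fit. For SSM minus CC, 26 of 38 assembly factors outside the naming rule lay higher (median 0.040). So did 11 of 14 other genes of the chain (list median 0.034), which include cytochrome c and the ADP/ATP carriers. The differences of these 14 genes ran from -0.083 to 0.10, with cytochrome c (Cycs, 0.10, SE 0.072) at the upper end. Of the citric acid cycle and pyruvate dehydrogenase genes 16 of 22 lay higher (median 0.043). The smallest p among them belonged to Dlat, the acetyltransferase of pyruvate dehydrogenase, at 0.14 (SE 0.050). Genes of mitochondrial biogenesis lay higher in 8 of 19 and lower in 11 (median -0.025). Their differences ran from -0.22 to 0.20, with Tfam, which packs mitochondrial DNA, at the upper end (0.20, SE 0.11). The 2 mitochondrially encoded subunits measured, ND3 of complex I and COX2 of complex IV, differed by -0.049 (SE 0.067) and -0.082 (SE 0.070). Mitochondrial ribosomal proteins, a list added after the data were seen, lay higher in 63 of 77 (median 0.071), and cytosolic ribosomal proteins, added likewise, in 42 of 61 (median 0.029). None of these genes passed the adjusted threshold in this comparison (limma). At an unadjusted p under 0.05 there were 2 higher and 1 lower among the assembly factors, 1 and 0 in the citric acid cycle list, 14 and 1 among mitochondrial and 4 and 0 among cytosolic ribosomal proteins, and 0 in the other 3 lists. Most nuclear-encoded subunits and most mitochondrial ribosomal proteins thus lay higher in SSM, while both mitochondrial transcripts lay lower by about their SE. Both also lay below CC in MSS (median -0.042), MSM (-0.031) and SSS (-0.043), so this was not particular to SSM. Against SSS the median in SSM was -0.023, with 1 of the 2 above 0. No difference between these lists was tested.

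Markers of other cell types and bordering tissue also differed between SSM and CC in their medians. The striatum list lay higher in 12 of 13 genes (median 0.42), the choroid plexus list in 14 of 14 (0.23), the myelin list in 14 of 16 (0.20), the interneuron list in 11 of 14 (0.12) and the microglia list in 11 of 14 (0.081). The glutamatergic neuron list lay higher in 3 of 12 (-0.073) and the endothelial list in 3 of 11 (-0.055). By array, the microglia median ranged from 0.94 to 1.24 in SSM and from 0.74 to 1.01 in CC, the myelin median from -0.46 to 1.10 in SSM and from -0.51 to 0.55 in CC, and the choroid plexus median from -0.52 to -0.012 in SSM and from -0.70 to -0.27 in CC. In the mean morphine difference, 14 of 14 choroid plexus genes (median 0.46) and 12 of 13 striatum genes (0.58) lay higher. So did 14 of 16 myelin (0.32), 11 of 13 thalamus (0.21) and 7 of 13 astrocyte genes (0.0077). Of the glutamatergic neuron genes 0 of 12 did (-0.29), and of the endothelial genes 3 of 11 (-0.050). The part of these lists in the subunit differences was not tested. Among the members named for SSM minus CC, the differences without SSM replicate 1 and MSM replicate 3 were 0.23 for Ndufa6, 0.16 for Ndufa1, 0.26 for Atp5md, 0.24 for Atp5l, 0.30 for Uqcrfs1 and -0.23 for Cox4i2. Those of Ndufb9, Ndufs6, Ndufb8 and Sdhb were 0.16, 0.19, 0.14 and 0.062.

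The size of the displacement also depended on how arrays were put on one scale. In the values as deposited, with no centring, all 73 subunits lay higher in SSM than in CC, with a median of 0.13 and 31 of them at an unadjusted p under 0.05, but the median of all genes was then 0.062 in the same direction. SSM replicate 3 carried much of that common shift, since its genes lay 0.15 above their own means over all arrays. Quantile normalization gave 0.067 with 70 of 73 above 0. Leaving out each of the 15 arrays in turn gave medians from 0.063 to 0.079 for SSM minus CC, with the lowest count (61 of 73) without SSM replicate 1. The same range was 0.040 to 0.061 for the mean morphine difference and 0.028 to 0.051 for severity.

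**Figure D4:**
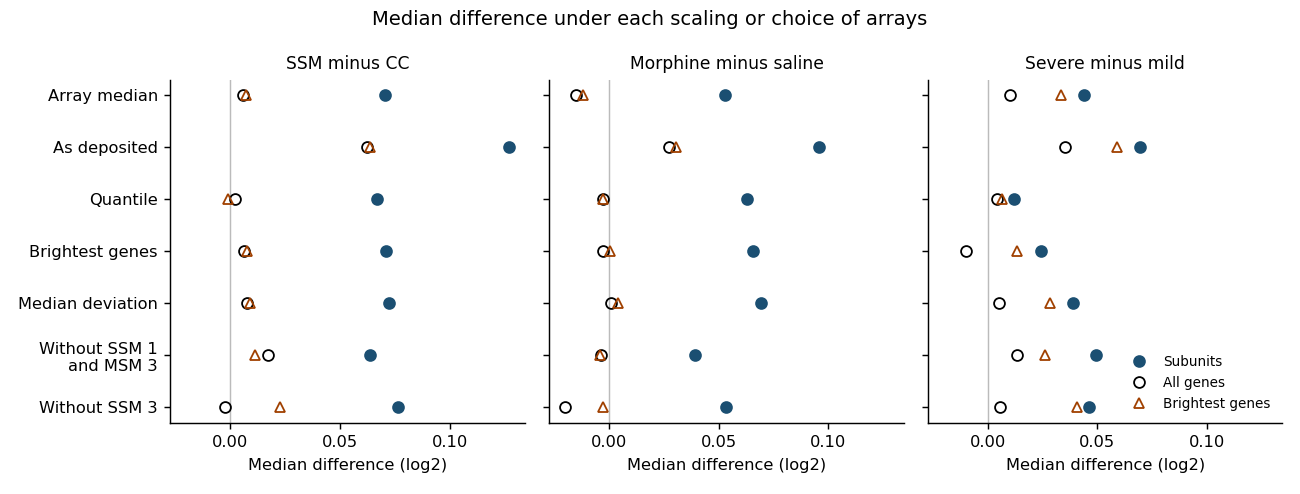
Median difference (log2) over the 73 subunits (filled circles), all genes (open circles) and the 4985 brightest genes (triangles) under 5 scalings (centring on the array median, none, quantile normalization, centring on the brightest genes, centring on the median deviation of genes from their means) and without named arrays, for SSM minus CC, the mean morphine difference and the mean severity difference. The subunit median lies above that of all genes under each setting shown for SSM minus CC and for morphine, while under quantile normalization the severity median of the subunits (0.012) lies near that of all genes (0.0043).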

How the data were processed

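The authors deposited 1 series table of log2 intensities, computed with RMA per the submitters' processing notes. The sources used here do not name the RMA software. All 15 columns matched a sample and 0 were unused. Of 35557 probe sets, 21789 carry 1 gene symbol in the platform annotation, 1621 carry several and 12147 are unnamed here. The brightest probe set per symbol gave 19938 genes. The 6 probe sets with several symbols that matched the naming rule were not used. All 93 member symbols were found in RefSeq.

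Each array was centred on its median over all genes, then limma 3.58.1 (R 4.3.3) estimated 1 mean for each group on all 15 arrays, with lmFit and eBayes, at 10 residual and 4.04 prior degrees of freedom. All tests were two-sided. The fit was tested on simulated data in which genes varied independently and changed by larger folds than the subunit medians here. That test does not address small shifts shared by many genes. The number of arrays limits the precision. Summaries were made in Python 3.11.15.

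The members, the gene lists and the rule for naming genes (members with the smallest p in each direction of a comparison and in each complex, the isoform pairs, and Sdhaf1) were chosen with earlier results of these data known. Alternatives were the values as deposited, quantile normalization, other centrings, a filter at a mean of 6, each array or a set of arrays left out, and the SS number in the titles as a random block. Of the comparisons planned, protein identity between isoforms was not analysed here.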

Additional observations from a re-analysis of the deposited data

How the results depend on the processing

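The count of members called was 0 in all 311 combinations of comparison and alternative. Median differences over the members moved with scaling in some comparisons and with single arrays in others. As deposited they were 0.11 for SSM minus CC, 0.12 for SSM minus SSS, 0.091 for SSM minus MSM, 0.085 for morphine, 0.068 for severity and 0.060 for the interaction, because centring subtracts each array's own median. With quantile normalization they were 0.019 for SSM minus MSM and 0.011 for severity. With 1 array left out in turn they ranged from 0.020 to 0.058 for MSM minus MSS, from 0.020 to 0.056 for SSM minus MSM and from -0.014 to 0.038 for the interaction, with the highest, lowest and lowest of these without MSM replicate 2 and the other ends without MSS replicate 3, MSM replicate 3 and MSM replicate 3. Of the differences of named members 2 changed sign: Ndufaf6 in SSM minus CC ranged from -0.14 (without CC replicate 2) to 0.069 (without CC replicate 3), and Sdhaf1 in SSM minus SSS was 0.0079 as deposited. The cause was not tested. With the SS number as a random block the estimated correlation was 0.098, but each SS number lies within CC, mild stress or severe stress, so a block cannot separate it from them. No paired analysis was possible because replicate numbers were given in accession order and pair no samples across groups.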
